A study of Rattus norvegicus and Bos taurus with 6 samples.

Results

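The genes described here are 8 members of the renin-angiotensin system, Agt, Ace, Enpep, Lnpep, Atp6ap2, Agtr1a, Agtr1b and Agtr2. They were chosen by name, with earlier results of these data known. All 8 were matched by symbol in the rat gene lists, which hold 25629 genes for the 10x Genomics library and 38697 genes for the Parse libraries. The cow gene list of 36075 genes held 6 of them, with AGTR1 taken for Agtr1a and with no symbol ATP6AP2 or AGTR1B. Single-nucleus RNA-seq gave 19424 nuclei in 6 libraries, with 1 library per tissue and platform and therefore no replicates. The rat libraries came from male Dahl SS rats (SS/HsdMcwiCrl) on a normal diet, an inbred strain used as a model of salt-sensitive hypertension. They were mesenteric perivascular adipose tissue (mesPVAT) on the 10x Genomics platform, and mesPVAT, retroperitoneal (RP) fat, thoracic aortic perivascular adipose tissue (taPVAT) and subscapular brown adipose tissue (BAT) on the Parse platform. The cow library was flank subcutaneous white adipose tissue (WAT) of female Holstein cows on the Parse platform. All tissue was snap frozen, and the labels name no treatment or altered allele. They do not say how many animals a library holds.

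The renin-angiotensin system is a hormone cascade that raises blood pressure and retains salt. Angiotensinogen is cut to angiotensin I, which angiotensin-converting enzyme cuts to angiotensin II, and this peptide acts mainly through the AT1 receptor. Aminopeptidases degrade it further, and adipose tissue is known as a source of angiotensinogen outside the liver.

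In the brown depots and cow WAT some members differed between cell classes. Pairs of member and class at least 2-fold above the other 3 classes were 5 of 24 in taPVAT, 7 of 24 in BAT and 5 of 20 in cow WAT. Of all genes, 14.7% to 23.9%, 18.5% to 25.4% and 6.4% to 8.01% were past 2-fold in the classes with such a pair. Agtr1a, the main AT1 receptor gene of rodents, was highest in nuclei with a stromal or a mural marker. Ace was highest in nuclei with an endothelial marker, level with stromal nuclei in the cow. In the brown depots Enpep was highest in mural and Agt in adipocyte nuclei. For Agt, mural nuclei stood close to adipocyte nuclei, on 2 UMIs in taPVAT and 3 UMIs in BAT. For Agtr1a and Enpep this order could not be read from the white rat libraries, whose stromal and mural nuclei held few UMIs of either gene. Agtr2, the AT2 receptor gene, had at most 2 UMIs in any library. Between the 5 rat libraries the highest and the lowest level lay farthest apart for Agtr1b and Agt.

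Sequence before the transcription start is shown for the rat pair of AT1 receptor genes, whose levels went apart between libraries, and for Enpep and Ace, whose levels went apart between cell classes. These are the 100 bases before the listed transcription start of each gene (GRCr8, 5′ to 3′), with TATAAA and GGGCGG, searched on both strands, in capitals. The stretch lies at chr17:34435433-34435532 on the minus strand for Agtr1a. All but its first bases, the TATAAA included, lie inside the annotated gene span, which reaches 34435523. The other stretches lie at chr2:104849263-104849362 on the minus strand for Agtr1b, at chr2:220526219-220526318 on the minus strand for Enpep and at chr10:91410029-91410128 on the plus strand for Ace.
Agtr1a: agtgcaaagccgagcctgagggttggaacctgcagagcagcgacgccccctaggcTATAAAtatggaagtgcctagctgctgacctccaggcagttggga
Agtr1b: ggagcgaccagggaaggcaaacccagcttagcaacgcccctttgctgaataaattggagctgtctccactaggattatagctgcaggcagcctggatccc
Enpep: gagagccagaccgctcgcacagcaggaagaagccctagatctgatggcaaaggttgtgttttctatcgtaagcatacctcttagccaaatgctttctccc
Ace: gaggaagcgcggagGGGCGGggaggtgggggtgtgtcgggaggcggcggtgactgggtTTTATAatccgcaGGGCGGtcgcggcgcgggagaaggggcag

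TATAAA was found in the Agtr1a and Ace stretches and not in those of Agtr1b and Enpep, and 5.78% of 33469 promoters of this length hold it. GGGCGG was found at 2 places before Ace, and 21.6% of the promoters hold it. The Agtr1a and Agtr1b stretches share the base at 19 of 100 positions counted without gaps. A match of letters is a description of the sequence only. The promoter table matched 7 of the 8 members.

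Total unique molecular identifiers (UMIs) ranged from 845316 in the RP-labelled library to 16827260 in cow WAT, and median UMIs per nucleus from 161 in the 10x Genomics library to 3530 in cow WAT. The order of genes per nucleus in the white rat Parse libraries is opposite to that in the study's text, so they are called by their labels here, the mesPVAT-labelled and the RP-labelled library. Nuclei were given a class when they held a UMI of exactly 1 of 4 markers, Plin1 (adipocyte), Ptprb (endothelial), Pdgfra (stromal progenitor) and Notch3 (mural). Nuclei with no marker made up 85.7% of the 10x Genomics library, 64.4% and 81.9% of the mesPVAT- and RP-labelled Parse libraries, and at most 32.3% of the others. UMIs of 14 genes that mark pancreas, kidney, adrenal and liver summed to 229 CPM and 356 CPM in the mesPVAT- and RP-labelled Parse libraries, against 49.2 to 61.0 CPM in the other 4 libraries. The 10x Genomics gene list holds 13 of these 14 genes. Levels are UMIs per 1000000 (CPM) with exact Poisson 95% intervals, shares have exact binomial 95% intervals, and both cover counting error only.

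**Figure D1:**
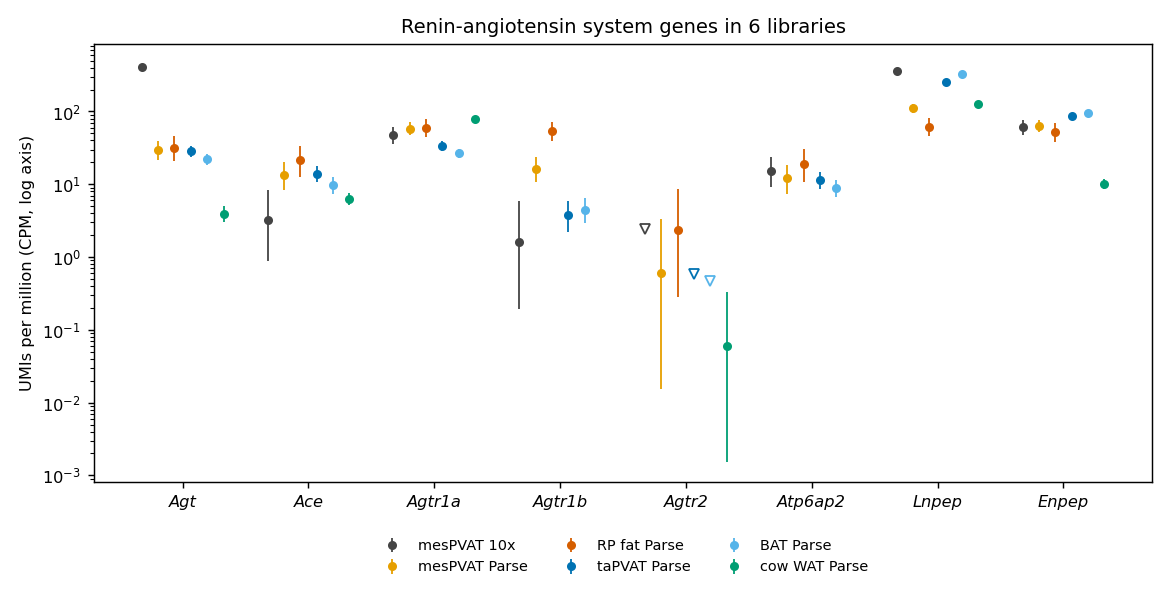
Level of each of the 8 genes in each library, in CPM on a log axis, with exact Poisson 95% intervals. Open triangles mark the limit of 3 counts where no UMI was found. Agt in mesPVAT on the 10x Genomics platform (413 CPM) and Agtr1b in the RP-labelled library (54.4 CPM) stand above the other libraries.

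Agt encodes angiotensinogen, the only known precursor of the angiotensin peptides, and lies at chr19:69426540-69447017 (GRCr8). Its level was 413 CPM in mesPVAT on the 10x Genomics platform, 29.6 and 31.9 CPM in the mesPVAT- and RP-labelled Parse libraries, 28.2 CPM in taPVAT, 22.0 CPM in BAT and 3.92 CPM in cow WAT. The 4 rat Parse libraries overlapped their neighbours in order of level, whereas the 10x Genomics library stood above them and cow WAT below them. In sums over all nuclei, fewer cells of a type and less RNA per cell cannot be told apart.

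The level of Agt in mesPVAT was 13.96-fold higher on the 10x Genomics platform than in the mesPVAT-labelled Parse library (95% interval 10.4 to 19.1). At least 2-fold higher in the 10x Genomics library were 22.8% of the 12067 genes tested, and at least 2-fold lower 32.4%. Of the 7 members tested, Agt and Lnpep were higher and Ace and Agtr1b lower. By the study's methods isolation protocol, nuclei sorting, kit and genome build differ between these libraries and cannot be told apart. The tissue of the Parse library is known by its label only, and the labels do not name the animals.

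Markers of several cell types moved with this difference, and their part in it was not tested. The 9 adipocyte markers summed to 8902 CPM in the 10x Genomics library and 3668 CPM in the mesPVAT-labelled library (2.43-fold), mural markers were 1.82-fold higher on the 10x Genomics platform and the 3 brown adipocyte markers 4.78-fold lower. Of 5 mesothelial genes, 3 were in the 10x Genomics gene list and all 3 had UMIs, with a sum of 860 CPM, against 80.3 CPM in the mesPVAT-labelled library and 48.5 CPM in the RP-labelled library. In a split chosen after the values were seen, Agt stood at 214 CPM in the 741 nuclei of the 10x Genomics library with a mesothelial marker and at 448 CPM in the other 5146. At the low depth of this library a nucleus without such a UMI may still be of that type.

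By class, Agt was at least 2-fold higher in adipocyte nuclei than in the other 3 classes pooled in 3 of the 5 rat libraries. In taPVAT it was 37.3 CPM in adipocyte nuclei (95 UMIs) and 11.7 CPM in the other 3 classes (5 UMIs), a ratio of 3.19 (1.32 to 10.1). In BAT the levels were 25.7 and 4.99 CPM, a ratio of 5.15 (1.70 to 25.5), and in the 10x Genomics library they were 605 and 156 CPM, a ratio of 3.89 (1.98 to 8.72). Mural nuclei alone stood closer to adipocyte nuclei, at 29.0 CPM in taPVAT (2 UMIs) and 20.7 CPM in BAT (3 UMIs). In the 10x Genomics library they stood at 409 CPM (3 UMIs), so that adipocyte and mural nuclei cannot be set apart on these counts. Among all genes tested, 14.7%, 18.5% and 21.8% were at least 2-fold higher in adipocyte nuclei of taPVAT, BAT and the 10x Genomics library, respectively. In the mesPVAT-labelled library the ratio was 1.35 (0.565 to 3.57), with 48.8 CPM in adipocyte nuclei (19 UMIs) and 68.4 CPM in stromal nuclei (2 UMIs), and the RP-labelled library had too few UMIs for the comparison.

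Of the Agt-positive nuclei, 88.1% held a Plin1 UMI in taPVAT (89 of 101) and 93.9% in BAT (92 of 98). The same marker was in 59.3% and 68.2% of nuclei without Agt. Nuclei with Agt were deeper, with median UMIs of 2465 against 1212 in taPVAT and 3014 against 1686 in BAT, and the part of depth in these shares was not tested.

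Cow WAT had another order of classes. AGT was 10.5 CPM in stromal nuclei (13 UMIs), 9.04 CPM in mural nuclei (11 UMIs), 1.91 CPM in adipocyte nuclei (2 UMIs) and 0.525 CPM in endothelial nuclei (1 UMI). Stromal nuclei stood 3.13-fold above the other 3 classes (1.35 to 7.17) and mural nuclei 2.37-fold (0.993 to 5.43), an interval that holds 1, and the mural difference was 0.06 log2 units below 0 when all nuclei with Notch3 were counted. At least 2-fold higher were 6.4% of genes in stromal and 8.01% in mural nuclei of cow WAT. Of 49 AGT-positive cow nuclei, 67.3% held a PDGFRA UMI and 28.6% a PLIN1 UMI, against 22.3% and 17.2% of nuclei without AGT. No test of the difference between rat and cow was made.

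Ace encodes angiotensin-converting enzyme, which the endothelium carries on its surface, and lies at chr10:91410129-91430246. Its levels were low throughout, with 3.23 CPM (4 UMIs) in the 10x Genomics library, 13.3 and 21.3 CPM in the mesPVAT- and RP-labelled Parse libraries, 13.9 CPM in taPVAT, 9.66 CPM in BAT and 6.36 CPM in cow WAT. Neighbours in this order overlapped at every step. On the 10x Genomics platform it was 4.11-fold lower than in the mesPVAT-labelled Parse library (1.40 to 16.4), and it had only these 4 UMIs there.

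Endothelial nuclei carried the highest level of Ace where UMIs allowed a comparison. They stood at 50.7 CPM in taPVAT (13 UMIs), 50.8 CPM in BAT (22 UMIs) and 12.1 CPM in cow WAT (23 UMIs), against 6.63, 1.69 and 4.57 CPM in the other 3 classes. The ratios were 7.65 (3.44 to 16.5), 30.1 (11.8 to 90.8) and 2.65 (1.34 to 5.36). The cow difference of ACE fell under 2-fold, to 0.90 log2 units, with any nucleus that holds the marker. The share of all genes at least 2-fold higher in endothelial nuclei was 22.4% for taPVAT, 20.4% for BAT and 7.89% for cow WAT.

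Stromal nuclei of cow WAT held ACE as well, at 11.3 CPM (14 UMIs), while 150 singly marked adipocyte nuclei held none, which allows up to 2.86 CPM. In BAT, 73.6% of Ace-positive nuclei had a Ptprb UMI (39 of 53), against 25.2% of the other nuclei. Shares of nuclei with a UMI were 5.22% of endothelial nuclei in taPVAT, at a median of 857 UMIs, and 0.667% of immune nuclei (Ptprc-positive with none of the 4 markers), at a median of 704 UMIs. Of all Ptprc-positive nuclei of taPVAT, with or without a class marker, 3.46% had an Ace UMI, at a median of 1205 UMIs. This was beside 2.51% of all nuclei.

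Enpep encodes aminopeptidase A, which trims angiotensin II to angiotensin III and is known from pericytes, and lies at chr2:220456258-220526218. Its levels were 60.6 CPM in the 10x Genomics library, 63.4 and 52.1 CPM in the mesPVAT- and RP-labelled Parse libraries, 86.9 CPM in taPVAT, 96.6 CPM in BAT and 10.2 CPM in cow WAT. The rat libraries lay within 52.1 to 96.6 CPM and cow WAT below all of them.

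Mural nuclei of the brown depots held the highest level of Enpep. They stood at 261 CPM in taPVAT (18 UMIs) and at 455 CPM in BAT (66 UMIs), against 81.3 and 72.6 CPM in the other 3 classes, ratios of 3.21 (1.87 to 5.18) and 6.27 (4.72 to 8.22). With any nucleus that holds the marker, the taPVAT difference of Enpep was 0.96 log2 units, under 2-fold. Genes at least 2-fold higher in mural nuclei made up 22.1% in taPVAT and 19.4% in BAT. In BAT, 50.7% of mural nuclei had an Enpep UMI, at a median of 1226 UMIs, against 1.96% of immune nuclei, at a median of 881 UMIs. Of all Ptprc-positive nuclei of BAT, with or without a class marker, 12.3% had one, at a median of 1599 UMIs. This was beside 14.2% of all nuclei.

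Adipocyte nuclei also held Enpep, at 86.9 CPM in taPVAT and 77.1 CPM in BAT, above the 31.2 and 30.0 CPM of endothelial nuclei. Stromal nuclei stood at 68.8 CPM in taPVAT (7 UMIs) and at 215 CPM in BAT (5 UMIs), there above adipocyte nuclei. In cow WAT mural nuclei were not highest, with 12.4 CPM in adipocyte, 5.78 CPM in endothelial, 4.04 CPM in stromal and 10.7 CPM in mural nuclei. In the 10x Genomics library Enpep was 349 CPM in endothelial nuclei (10 UMIs), 7.71-fold above the other 3 classes (2.88 to 20.6), where 15.4% of genes were at least 2-fold higher. Mural nuclei there held 0 UMIs of Enpep in 36 nuclei, which allows up to 409 CPM, so that an order of the classes cannot be read from them.

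A nucleus with both Rgs5, a pericyte marker, and Myh11, a smooth muscle marker, held more Enpep and Agtr1a in the brown depots, in a split chosen after the values were seen. In BAT, Enpep was 241 CPM in the 128 nuclei with both markers, 111 CPM with Rgs5 alone, 95.3 CPM with Myh11 alone and 74.2 CPM with neither. Agtr1a was 104, 44.0, 24.4 and 13.6 CPM in the same sets. The nuclei with both were also the deepest, with a median of 3052 UMIs against 1606 with neither.

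Lnpep encodes insulin-regulated aminopeptidase, the AT4 receptor that binds angiotensin IV and moves with the glucose transporter Glut4 in fat cells, and lies at chr1:66931712-67027610. Its levels were 365 CPM in the 10x Genomics library, 110.5 and 61.5 CPM in the mesPVAT- and RP-labelled libraries, 257 CPM in taPVAT, 328 CPM in BAT and 125 CPM in cow WAT. The 10x Genomics library and BAT overlapped at the top and the RP-labelled library was lowest.

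Lnpep was highest in adipocyte nuclei in the brown depots and in cow WAT, and it was found in every class there except the 19 stromal nuclei of BAT. In taPVAT it was 297 CPM in adipocyte nuclei and 172 to 177 CPM in the other classes, in BAT 364 CPM against 208 CPM in endothelial and 193 CPM in mural nuclei, and in cow WAT 192 CPM against 73.5 to 118 CPM. These differences stayed under 2-fold against the other 3 classes pooled. Lnpep was found in 41.7% of BAT nuclei and 31.1% of taPVAT nuclei, and in 5.85% and 4.42% once each nucleus was thinned to 200 UMIs.

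Atp6ap2 encodes an accessory subunit of the vacuolar proton pump, and lies at chrX:12856708-12883670. It was measured in the rat libraries alone, at 15.4 CPM in the 10x Genomics library, 12.1 and 18.9 CPM in the mesPVAT- and RP-labelled libraries, 11.4 CPM in taPVAT and 8.86 CPM in BAT. Each neighbour overlapped the next. Its 2.13-fold higher level in endothelial nuclei of BAT rested on 7 UMIs, with an interval of 0.783 to 5.01.

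**Figure D2:**
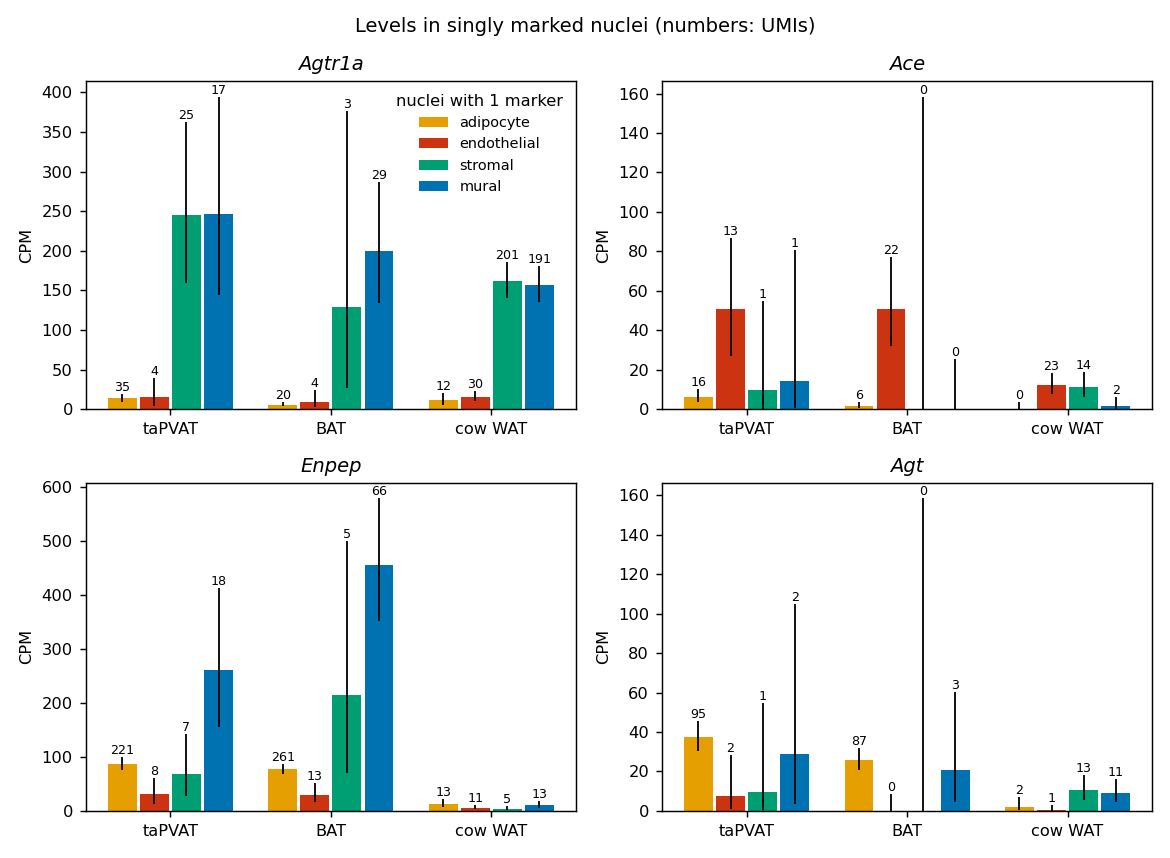
Levels (CPM, linear axes from 0) of Agtr1a, Ace, Enpep and Agt in nuclei with exactly 1 class marker, in taPVAT, BAT and cow WAT. Lines are exact Poisson 95% intervals and the numbers above them are UMIs. Agtr1a is highest in stromal and mural nuclei of all 3 tissues, at 129 to 247 CPM, against 5.91 to 15.8 CPM in adipocyte and endothelial nuclei.

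Agtr1a encodes the AT1a receptor, through which angiotensin II constricts vessels and acts on fibroblast-like cells, and lies at chr17:34383397-34435523. Its levels were 47.7 CPM in the 10x Genomics library, 57.9 and 59.1 CPM in the mesPVAT- and RP-labelled libraries, 33.3 CPM in taPVAT, 26.6 CPM in BAT and 79.7 CPM in cow WAT, where the gene is AGTR1. Each library overlapped its neighbour in the order of levels, cow WAT the RP-labelled library and taPVAT the 10x Genomics library. Between libraries Agtr1a moved less than Agt, Agtr1b or Lnpep.

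Within the brown depots and cow WAT the classes differed widely. In taPVAT, stromal nuclei stood at 246 CPM (25 UMIs) and mural nuclei at 247 CPM (17 UMIs), against 13.8 CPM in adipocyte nuclei (35 UMIs) and 15.6 CPM in endothelial nuclei (4 UMIs). In BAT, mural nuclei stood at 200.04 CPM (29 UMIs) and stromal nuclei at 129 CPM (3 UMIs), against 5.91 and 9.24 CPM. In cow WAT, stromal nuclei stood at 162 CPM (201 UMIs) and mural nuclei at 157 CPM (191 UMIs), against 11.4 and 15.8 CPM. Many UMIs of the gene lay outside these singly marked classes. Of 1341 cow AGTR1 UMIs, 750 were in nuclei with several markers (81.5 CPM) and 157 in nuclei without a marker (70.7 CPM). The same sets held 80 and 32 of 168 UMIs of BAT, at 39.9 and 97.2 CPM. For taPVAT they held 65 and 24 of 170 UMIs, at 39.2 and 51.1 CPM.

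Against the other 3 classes pooled, the stromal ratios were 12.6 in taPVAT (7.52 to 20.5), 9.63 in BAT (1.92 to 29.7) and 2.90 in cow WAT (2.39 to 3.52). The mural ratios were 11.2 (6.14 to 19.3), 28.5 (16.3 to 50.0) and 2.71 (2.23 to 3.28). With any nucleus that holds the marker, the cow differences fell under 2-fold, to 0.79 log2 units in stromal and 0.56 in mural nuclei, and the BAT stromal value, on 3 UMIs, could not be had from sublibrary 2 alone. Genes at least 2-fold higher in stromal nuclei made up 23.9% in taPVAT and 25.4% in BAT. The stromal and mural levels overlapped in all 3 libraries, so that neither class was above the other beyond counting error.

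Shares of nuclei with an Agtr1a UMI followed the levels. In taPVAT, 19.0% of stromal and 17.6% of mural nuclei were positive, at medians of 1050 and 852.5 UMIs, against 0.667% of immune nuclei at a median of 704 UMIs. Of all Ptprc-positive nuclei of taPVAT, with or without a class marker, 4.32% were positive, at a median of 1205 UMIs. This was beside 4.39% of all nuclei. In cow WAT, 37.6% of stromal and 24.9% of mural nuclei were positive, against 8.29% of immune nuclei, where AGTR1 stood at 51.0 CPM (45 UMIs), above its 11.4 CPM in adipocyte nuclei. Of all PTPRC-positive cow nuclei 26.9% were positive, at a median of 6246 UMIs, beside 20.3% of all nuclei. The adipocyte share in taPVAT was 2.23% at a median of 1725.5 UMIs, a low share in the deepest of the singly marked classes.

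Co-detection gave the same order from the side of the receptor. Of the 124 nuclei with an Agtr1a UMI in BAT, 53.2% held Notch3, against 5.98% of nuclei without. In taPVAT 32.8% held Notch3 and 28.6% held Pdgfra, against 7.07% and 5.72%, and in cow WAT 45.7% held NOTCH3 and 50.9% PDGFRA, against 21.2% and 16.3%. Nuclei with the receptor were deeper, with medians of 2390.5 against 1686 UMIs in BAT and 8299 against 2993 UMIs in cow WAT. Plin1 went the other way in the rat, in 50.8% of Agtr1a-positive and 70.0% of the other nuclei of BAT.

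**Figure D3:**
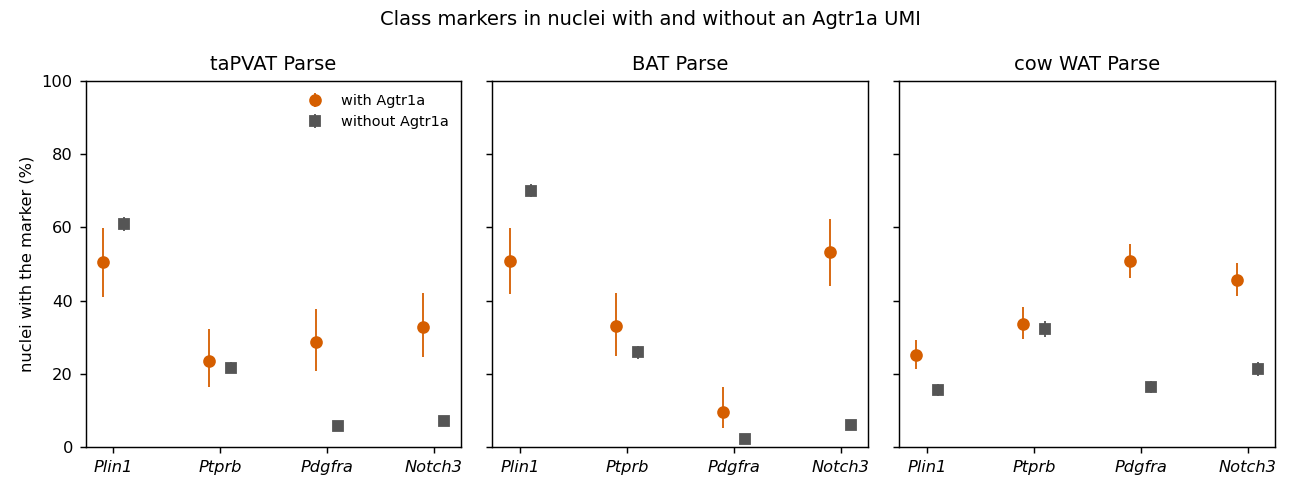
Share of nuclei (%, linear axis from 0 to 100) that held a UMI of each class marker, among nuclei with an Agtr1a UMI (circles) and without one (squares), with exact binomial 95% intervals, in taPVAT, BAT and cow WAT. Notch3 is in 53.2% of Agtr1a-positive nuclei of BAT and 5.98% of the others.

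In the 10x Genomics library and the mesPVAT-labelled Parse library the class of Agtr1a was less clear. In the 10x Genomics library 9 of its 59 UMIs lay in stromal nuclei. These stood at 412 CPM against 35.1 CPM in the other 3 classes, a ratio of 11.7 (4.02 to 35.0). However, 7 of the 9 UMIs were in 1 nucleus, mural nuclei held 0, and the 20 UMIs needed for a call were not reached. The 741 nuclei of that library with a mesothelial marker stood at 107 CPM against 37.1 CPM in the others. In the mesPVAT-labelled Parse library it was 80.8 CPM in endothelial nuclei (13 UMIs) and 35.6 CPM in the other 3 classes, a ratio of 2.27 (1.00 to 5.03), where 12.5% of genes were at least 2-fold higher. This difference of Agtr1a fell under 2-fold with nuclei of at least 500 UMIs (0.43 log2 units), with extended marker lists (0.34) and with any nucleus that holds the marker (0.68). In that library Enpep was past 2-fold in stromal nuclei on 2 UMIs, with an interval of 0.236 to 8.67 and 14.7% of genes past it. Stromal and mural nuclei of the RP-labelled library held 1 Agtr1a UMI each and endothelial nuclei 7, and 0 pairs of member and class there held the 20 UMIs needed.

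Over all members and classes, the pairs at least 2-fold above the other 3 classes were 2 of 12 tested in the 10x Genomics library, 2 of 16 in the mesPVAT-labelled library, 5 of 24 in taPVAT, 7 of 24 in BAT and 5 of 20 in cow WAT. Of all genes, 15.4% to 21.8%, 12.5% to 14.7%, 14.7% to 23.9%, 18.5% to 25.4% and 6.4% to 8.01% were past 2-fold in those classes of these libraries where a member was past it. Shares for the remaining classes are not given. The members' counts in the 10x Genomics library, the mesPVAT-labelled library and taPVAT were near these shares, and that of BAT was little above them. Beside those described above, Enpep was past 2-fold in stromal nuclei of BAT, on 5 UMIs, with an interval of 0.807 to 5.90.

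Agtr1b encodes the AT1b receptor, the close paralog of Agtr1a that rodents carry, and lies at chr2:104774005-104849262. UMIs of the paralogs can be assigned to either gene where their sequences are alike, which makes the division between them uncertain. Its levels were 1.62 CPM in the 10x Genomics library (2 UMIs), 16.3 CPM in the mesPVAT-labelled library (27 UMIs), 54.4 CPM in the RP-labelled library (46 UMIs), 3.73 CPM in taPVAT (19 UMIs) and 4.43 CPM in BAT (28 UMIs). The RP- and mesPVAT-labelled libraries stood above the others and apart from each other.

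In the RP-labelled library Agtr1b was 3.34-fold higher than in the mesPVAT-labelled library (2.03 to 5.59). It was the 1 of 7 tested members past 2-fold in this comparison, in which 5.88% of genes were at least 2-fold higher in the mesPVAT-labelled library and 9.79% at least 2-fold lower. Lnpep was 1.80-fold higher in the mesPVAT-labelled library (1.31 to 2.49).

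The level of Agtr1b was higher in the white than in the brown Parse libraries, as were genes of other organs and many further genes. Brown against white, 54.9% of 24063 genes were at least 2-fold lower and 9.55% at least 2-fold higher. The 14 genes of pancreas, kidney, adrenal and liver stood at 356 CPM in the RP-labelled library, with all 14 detected, and at 49.2 CPM in BAT, with 13 detected. Per kilobase of gene span (GRCr8), Agtr1b was at 0.723 CPM per kb in the RP-labelled library (0.529 to 0.964) and these genes at 0.713 CPM per kb, and at 0.217 against 0.458 in the mesPVAT-labelled library. In taPVAT Agtr1b was at 0.0495 against 0.122 CPM per kb, and in BAT at 0.0589 against 0.0985, so that in none of the 4 Parse libraries was it above them beyond counting error.

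Agtr1a was above the pooled level of these genes per kilobase in all 5 rat libraries, at 1.13 CPM per kb in the RP-labelled library and 0.510 to 1.11 in the others. The adrenal genes alone stood above Agtr1a in the RP- and mesPVAT-labelled libraries, at 2.59 and 1.56 CPM per kb. In taPVAT they were at 0.635 CPM per kb, beside 0.639 for Agtr1a. The pancreas, kidney and liver genes were each below Agtr1a in all 5 libraries. Enpep and Lnpep were above the pooled level in the brown depots, at 1.24 to 3.42 CPM per kb, but at 0.744 and 0.641 CPM per kb in the RP-labelled library, where their intervals held the 0.713 CPM per kb of the other organs' genes. In that library Agtr1b was spread over the classes, with 33 of 46 UMIs in nuclei without a marker, at 54.3 CPM, and 46.3 to 87.6 CPM in the 4 marked classes, each on at most 4 UMIs, while 52 immune nuclei held 0 UMIs, which allows up to 136 CPM. The part of RNA from other cells in these levels was not tested.

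**Figure D4:**
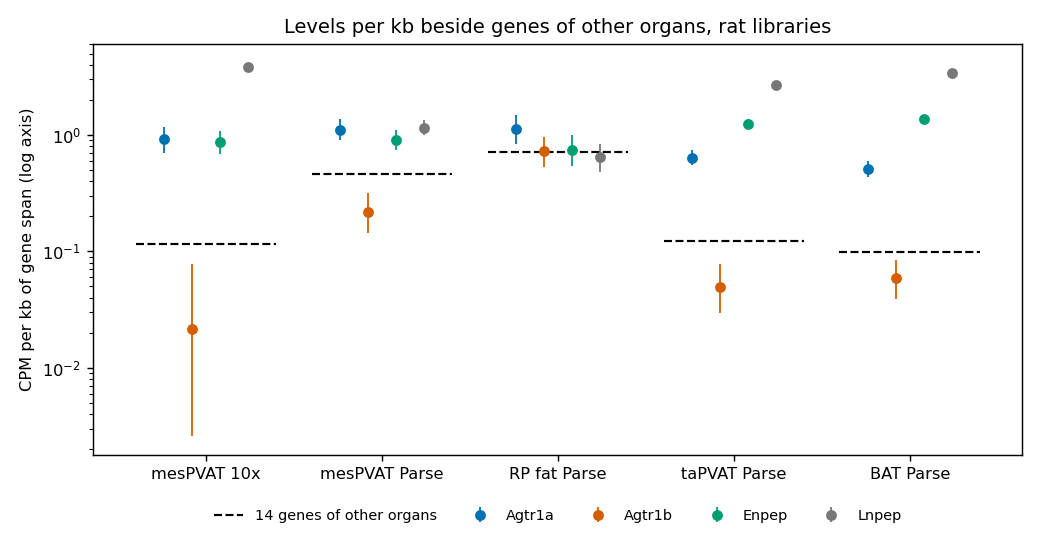
Levels per kilobase of gene span (CPM per kb, log axis) of Agtr1a, Agtr1b, Enpep and Lnpep in the 5 rat libraries, with exact Poisson 95% intervals. Dashed lines give the pooled level per kilobase of 14 genes of pancreas, kidney, adrenal and liver, of which 13 are in the 10x Genomics gene list. Agtr1b is at 0.723 CPM per kb in the RP-labelled library, beside a line at 0.713, and below the line in the other 4 libraries.

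Agtr2 encodes the AT2 receptor, which often opposes the AT1 receptor and falls in most tissues after birth, and lies at chrX:116914320-116918504. It had 0 UMIs in the 10x Genomics library, taPVAT and BAT, which allows up to 2.42, 0.588 and 0.475 CPM. It had 1 UMI in the mesPVAT-labelled library, 2 UMIs in the RP-labelled library and 1 UMI in cow WAT. Expression of Agtr2 was not detectable beyond this depth.

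The brown depots were close to each other. Of the 7 members tested between taPVAT and BAT, 0 were past 2-fold, where 5.97% of 18696 genes were at least 2-fold higher in taPVAT and 1.1% at least 2-fold lower. Agt, Ace and Agtr1a were 1.28-fold (1.01 to 1.63), 1.44-fold (1.01 to 2.06) and 1.25-fold (1.01 to 1.56) higher in taPVAT. The median of all genes was at 0.11 log2 units, and at -0.05 with median-of-ratios size factors. That shift is larger than the distance of these lower bounds from 1, so their place above 1 depends on the scaling. Lnpep was 1.28-fold higher in BAT (1.19 to 1.37), and intervals of Agtr1b, Atp6ap2 and Enpep held 1.

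Between the mean of the brown and the mean of the white rat Parse libraries, Lnpep and Agtr1b were past 2-fold. Lnpep was 3.41-fold higher in the brown depots (293 against 86.0 CPM) and Agtr1b 8.67-fold lower (4.08 against 35.4 CPM). For both, the Parse libraries of 1 kind lay entirely on 1 side of the other kind. The same held for Agt, Agtr1a, Atp6ap2 and Enpep, but not for Ace. The 10x Genomics library of mesPVAT, which is outside this comparison, did not follow the white Parse libraries. Its Lnpep, at 365 CPM, was above taPVAT, and its interval overlapped that of BAT. Its Agtr1b, at 1.62 CPM on 2 UMIs, had an interval of 0.196 to 5.84 CPM, which overlapped those of both brown depots. The background was lopsided, with 9.55% of 24063 genes at least 2-fold higher in the brown depots, 54.9% at least 2-fold lower and a median of all genes of -1.40 log2 units.

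The other tested members stood above that median. Agt was at -0.29, Ace at -0.55, Agtr1a at -0.97, Atp6ap2 at -0.62 and Enpep at 0.67 log2 units, brown against white. With median-of-ratios size factors, which moved the median of all genes by 1.74 log2 units, these became 1.43, 1.21, 0.75, 1.15 and 2.38, so that the direction of Agt, Ace, Agtr1a and Atp6ap2 turned, while Lnpep was at 3.45 and Agtr1b at -1.24. The genes of other organs were 5.31-fold lower in the brown depots and the 9 adipocyte markers 3.62-fold higher.

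Few nuclei held both Agt and Agtr1a. In the 10x Genomics library 1 of 418 Agt-positive nuclei held Agtr1a, in taPVAT 6 of 101 and in BAT 8 of 98, that is 0.239%, 5.94% and 8.16%, beside 0.866%, 4.39% and 4.59% of all nuclei. In cow WAT 46.9% of AGT-positive nuclei held AGTR1, beside 20.3% of all nuclei, at a median of 21605 UMIs for nuclei with both. Agtr1a and Enpep were more often together, with Enpep in 59 of the 124 Agtr1a-positive nuclei of BAT (47.6%) and in 14.2% of all nuclei. In taPVAT Enpep was in 28.6% of Agtr1a-positive nuclei and 10.5% of all nuclei, and the nuclei with both were deep, at medians of 2907 UMIs in BAT and 3525.5 UMIs in taPVAT. Agtr1a and Agtr1b shared 3 nuclei in each of these depots.

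Per kilobase of gene span the order of the members differed between libraries. In BAT it ran from Lnpep at 3.42 CPM per kb through Enpep at 1.38, Agt at 1.07, Agtr1a at 0.510, Ace at 0.480, Atp6ap2 at 0.329 and Agtr1b at 0.0589, and taPVAT had Lnpep and Agt first, at 2.68 and 1.38. In the 10x Genomics library Agt led at 20.2 CPM per kb, ahead of Lnpep at 3.81. Intervals of Agtr1a and Ace overlapped in BAT and in taPVAT.

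Shares of nuclei positive depended on depth. The share with an Agt UMI was 7.1% in the 10x Genomics library (6.46 to 7.79), 3.73% in taPVAT, 3.63% in BAT, 2.13% in cow WAT, 1.42% in the mesPVAT-labelled library and 0.963% in the RP-labelled library. Thinned to 200 UMIs per nucleus, with shallower nuclei left out, the shares were 8.25%, 0.535%, 0.443%, 0.0844%, 0.562% and 0.649%. For Agtr1a, a share of 20.3% in cow WAT and 4.59% in BAT became 1.45% and 0.669%, beside 0.818% in the 10x Genomics library and 1.18% and 1.07% in the mesPVAT- and RP-labelled libraries.

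The genes whose profile over 4 rat Parse libraries and 6 sets of nuclei was most like that of a member were ranked among 9407 genes. For Agtr1a they were Zfp385d, Gli2 and Dock10, with Pearson's r of 0.90, 0.87 and 0.87 over 24 points, and for Enpep Dmp1, Heyl and Slc24a3, at 0.83, 0.78 and 0.77. For Agt they were a gene without a symbol, Ift122 and Utp20, at 0.84, 0.83 and 0.81. Kansl1l, Cat and Cnot4 were most like Lnpep, at 0.88, 0.86 and 0.86, and 0 of these 3 were kept with a pseudocount of 1 CPM. Points of 1 library share its depth, so these are descriptions.

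Of 30 other genes of the system, 23 were tested between taPVAT and BAT. At least 2-fold higher in taPVAT were 3 of 23 and 0 were lower, beside 5.97% and 1.1% of all genes. The median of the 23 was -0.00 log2 units, against 0.11 for all genes. The 3 were Anpep (3.17-fold), an aminopeptidase that cuts angiotensin III, Thop1 (2.62-fold, on 19 against 9 UMIs) and Arrb2 (2.41-fold). Between the brown and white depots 7 of 24 were higher in the brown and 4 lower, against 9.55% and 54.9% of all genes, led by Rgs2, a brake on AT1 receptor signalling, at 9.27-fold, Ctsd at 4.52-fold and Mme, the enzyme neprilysin, at 3.55-fold. In the brown Parse depots Mas1, the receptor of angiotensin 1-7, was 3.49-fold lower. With median-of-ratios size factors it was at 0.02 log2 units and no longer lower.

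Between the mesPVAT- and RP-labelled libraries 0 of 21 tested were higher and Mas1 lower, beside 5.88% and 9.79% of all genes. On the 10x Genomics platform 5 of 21 were higher and 4 lower than in the mesPVAT-labelled library, beside 22.8% and 32.4% of all genes. Mas1 was among the 4, at 33.6-fold lower on 1 UMI in the 10x Genomics library. It stood at 58.0 CPM in the RP-labelled library and 27.2 CPM in the mesPVAT-labelled library, the libraries where genes of other organs were also highest. Per kilobase Mas1 was above the pooled level of those genes there, at 1.84 against 0.713 CPM per kb in the RP-labelled library. The adrenal genes alone stood higher in that library, at 2.59 CPM per kb. By class, Mme was in adipocyte nuclei of BAT at 282 CPM, against 28.3 CPM in the other classes, and Rgs2 at 131 against 9.98 CPM. Rgs5, which like Rgs2 limits signalling of AT1 receptors, stood at 696, 869 and 113 CPM in mural nuclei of taPVAT, BAT and cow WAT. It is itself on the list of mural markers, so its mural level is no separate result about the receptor. Plcb1, which acts downstream of the receptor, stood at 1213, 1495 and 2229 CPM in endothelial nuclei of the same libraries. Anpep was 128 CPM in stromal and 131 CPM in mural nuclei of taPVAT, where Agtr1a was also highest.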

How the data were processed

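UMI counts per gene and nucleus, deposited by the authors without normalization, were used as they stand. The Parse counts came from split-pipe on GRCr8 or the bovine genome, with reads split by species, and the 10x Genomics counts of DAPI-sorted nuclei came from Cell Ranger on an earlier rat build. The deposited tables still hold nuclei that the study's later filters would remove. The members and gene lists were chosen with earlier results of these data known. All of them entered, no doublets were removed, and nuclei with several markers were kept as a set of their own. The 5 Parse libraries shared 0 barcodes.

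UMIs were summed over nuclei and divided by the library total (CPM). Ratios have exact conditional 95% intervals. A gene was called at a ratio of 2 or 0.5 if both arms held at least 20 UMIs in sum, and an arm with no UMI was set at 3 counts. Since each group is 1 library, no test was made. All 8 members and the 4 markers are named, with other genes of the system named from 20 UMIs in any library, and for each member with at least 200 UMIs in the rat Parse libraries the 3 genes most like it on log2 of CPM plus 10. Single values of some other genes of the system are not reported here. Python 3.11.15, numpy 2.4.6, scipy 1.17.1 and pandas 2.3.3 were used.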

Additional observations from a re-analysis of the deposited data

How the results depend on the processing

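Each tissue and platform is 1 library, so intervals cover counting error alone, and a few calls rest on under 10 UMIs. No paired analysis was possible because no group has 2 replicates. Of the counts of members past 2-fold, 76 recomputed values stayed within 1.5 times the value reported and 26 did not, and the cause was not tested. Between the mesPVAT- and RP-labelled libraries the count of 1 member became 2 with nuclei of at least 500 UMIs, with median-of-ratios size factors, with sublibrary 2 alone and with a minimum of 1 UMI, and 4 at 1.5-fold. Brown against white, 2 became 6 with median-of-ratios size factors and 5 at 1.5-fold. The class calls of the 10x Genomics library went from 2 to 1 under the study's filters, with nuclei of at least 500 UMIs and without the top 1% of nuclei, to 4 with extended marker lists and at 1.5-fold, and to 5 with a minimum of 1 UMI. Those of the mesPVAT-labelled library went from 2 to 0 with nuclei of at least 500 UMIs, with sublibrary 1 alone and with any nucleus that holds the marker, to 1 with sublibrary 2 alone, to 6 with a minimum of 5 or 1 UMIs and to 5 at 1.5-fold. Those of the RP-labelled library went from 0 to 2 with a minimum of 5 UMIs and to 5 with 1. In BAT, 7 became 3 with sublibrary 2 alone, and in cow WAT 5 became 3 with sublibrary 1 alone, 1 with any nucleus that holds the marker and 9 at 1.5-fold. Of the values of single genes 1336 stayed and 401 moved beyond the interval or fold set for them, and 1 called value reversed: AGT in cow mural nuclei, at -0.058 log2 units with any nucleus that holds the marker. Below about 20 UMIs a level is known within a wide range, as for Agtr1a in stromal nuclei of BAT.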
